A study of Ciona robusta with 133 samples.

Results

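Of 15287 gene models, 17 were abundant in both cell types sampled at 16 cells of the ascidian embryo and low in all 4 cell types of the 6-row neural plate. They were chosen by their levels in CPM (the reads of a gene per 1000000 reads counted in a sample). A gene was taken if it averaged at least 20 CPM over the libraries of A5.1 and over those of a5.3, and below 5 CPM in each neural plate cell type. The 16-cell and neural plate values below were therefore used in the choice and are given as a description, without a test. At 16 cells 6857 genes reached 20 CPM in both types, so the 17 genes are 0.248% of them. Of those 6857 genes, 6583 (96.0%) still reached 20 CPM in at least 1 neural plate cell type, and 257 lay between 5 and 20 CPM there.

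An egg is loaded with RNA by the mother, and the first divisions of an animal embryo run largely on that store. During the maternal-to-zygotic transition the embryo's own genome becomes active and many stored transcripts are degraded, some early through factors already in the egg and others later through factors that the embryo makes. In ascidians some maternal RNAs are also placed in particular cells and passed on unequally at division. A gene that is high at 16 cells and low at the neural plate may be such a maternal transcript, but these data hold no egg and do not separate maternal from zygotic RNA, so the origin of the 17 transcripts was not tested. CPM are shares of the RNA that was sequenced, so a lower value cannot be told apart from more RNA of other genes in the cell.

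The cells came from embryos of Ciona robusta, a tunicate in which each early cell can be recognised by position and carries a lineage name. Single cells of the A (anterior vegetal) and a (anterior animal) lineages were isolated by hand, and cDNA was amplified from each. The labels name no treatment, genotype or strain for any group. At 16 cells these were A5.1 and a5.3. At 32 cells they were A6.2 and A6.1 of the A line and a6.5 and a6.6 of the a line. The cells at 64 cells were A7.4, A7.3 and A7.2 with a7.10 and a7.11, and those at 112 cells were A8.7 and A8.5 with a8.19 and a8.22. The neural plate groups were A9.13+A9.14 with A9.9+A9.10 of the A line, and a9.37+a9.38 as well as a9.43+a9.44 of the a line, each of whose labels names a pair of cells and does not say which one a library holds. A6.2, A7.4, A8.7 and A9.13+A9.14 are called neural-side cells of the A line here, and a6.5, a7.10, a8.19 and a9.37+a9.38 those of the a line. The others are called partner cells.

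There were 133 libraries, 72 of the A line and 61 of the a line, with 1452103 to 16599891 reads counted in each. Libraries of 1 cell type from 1 embryo were summed, which gave 86 embryo samples after 1 A6.1 library of 11208395 reads was left out. In that library 12 of the 17 genes had no read. A single read was worth 0.0395 to 0.382 CPM in these samples, and n counts embryos throughout. The labels give embryo numbers but not parents or spawning batches. The A-line and a-line cells came from the same embryos at 16 cells. At 32, 64 and 112 cells the labels do not say that A-line and a-line embryos with the same number are the same embryo.

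In order of the ratio of the 16-cell mean to the highest neural plate type (log2, with 1 CPM added to each), the genes were KH.C8.195, KH.S908.1, KH.S1005.1, KH.S1537.1, KH.C12.111, KH.C12.130, KH.C7.700, KH.C3.368, KH.C7.304, KH.C5.144, KH.C12.559, KH.L8.21, KH.C2.794, KH.L113.4, KH.C9.157, KH.C11.325 and KH.C8.673. The ratio was 4.75 for KH.C8.195 and 2.55 for KH.C8.673, against a median of -0.07 over the 6857 genes. The files pair no gene names with these KH identifiers and 0 of the 17 were in the RefSeq gene table used here, so neither roles nor sequences are given. By the letter in the identifier, 12 of the 17 were C models, 2 were L models and 3 were S models, against 68.7%, 19.5% and 11.8% of all gene models.

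The limits of the choice passed close to some genes. The member with the lowest 16-cell level was KH.C7.700, at 22.2 CPM in the lower 16-cell type, and just outside lay KH.L5.21 at 19.6 CPM. The member with the highest neural plate level was KH.C8.673, at 4.24 CPM in a9.37+a9.38, and just outside lay KH.L96.67 at 5.02 CPM. Without embryo 5 of the 16-cell stage, KH.C8.195 and KH.S1005.1 no longer qualified. Without embryo 4, KH.S1537.1 was lost, and without embryo 6, KH.L8.21 was lost.

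**Figure D1:**
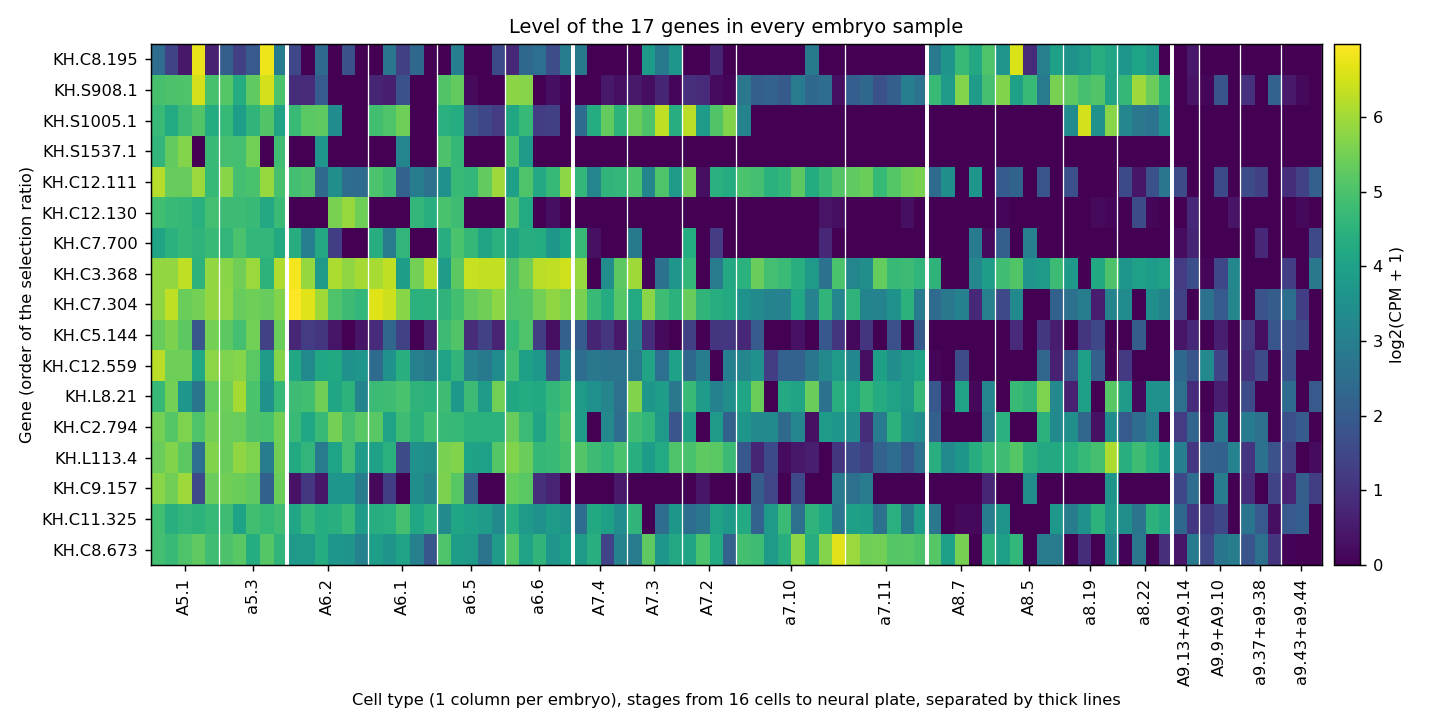
Level of the 17 genes, as log2(CPM + 1), in each of the 86 embryo samples. Each column is 1 embryo, thin lines separate cell types, thick lines separate stages, and A-line types stand left of a-line types within a stage. The right end (neural plate) is dark for all 17 genes, while the stages between show both steady and patchy levels.

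Together the 17 genes held 0.0582% of all counts in 16-cell embryos and 0.0325% in 32-cell embryos (means over cell types). The share was 0.0185% for the 64-cell types, 0.0146% for the 112-cell types and 0.00240% for those of the neural plate. Over the stages between, which the choice did not use, single embryo samples ranged from 0.0196% to 0.0479% at 32 cells, from 0.0100% to 0.0299% at 64 cells and from 0.00633% to 0.0268% at 112 cells. At 32 cells every embryo sample therefore lay below the lowest 16-cell sample, 0.0522%, while the ranges at 32, 64 and 112 cells overlapped one another. The 16-cell values were used in the choice, so the gap to 32 cells is a description and no test.

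Per gene, the median share of the 16-cell level that was left was 55.5% in 32-cell, 24.9% in 64-cell, 13.9% in 112-cell and 3.71% in neural plate types. Over the 6857 genes the same medians were 99.2%, 99.9%, 95.5% and 88.2%. Of the 17 genes, 7 were below 50% of their 16-cell level at 32 cells, 13 at 64 cells and 13 at 112 cells. Among the 6857 genes 1.04%, 3.44% and 9.55% were below 50% at those stages. Since the genes were chosen for a high 16-cell level and a low end, these shares describe them and are no test.

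The genes differed in when they first went below 50%. It was 32 cells for 7 of them, 64 cells for 7, 112 cells for 2, and only the neural plate for KH.S1005.1. In A-line cells alone the counts were 10, 4, 2 and 1, and in a-line cells alone they were 8, 5, 3 and 1. The stage was the same in both lineages for 8 of the 17 genes. For 4 genes, KH.C8.195, KH.S908.1, KH.L113.4 and KH.C8.673, the level went below 50% and was back at 50% or more at a later stage. Without embryo 5 of the 16-cell stage the counts over both lineages were 5, 8, 2 and 2, and 2 genes, KH.S908.1 and KH.L113.4, were back at 50% or more. The median share left at 64 cells was then 34.8%.

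**Figure D2:**
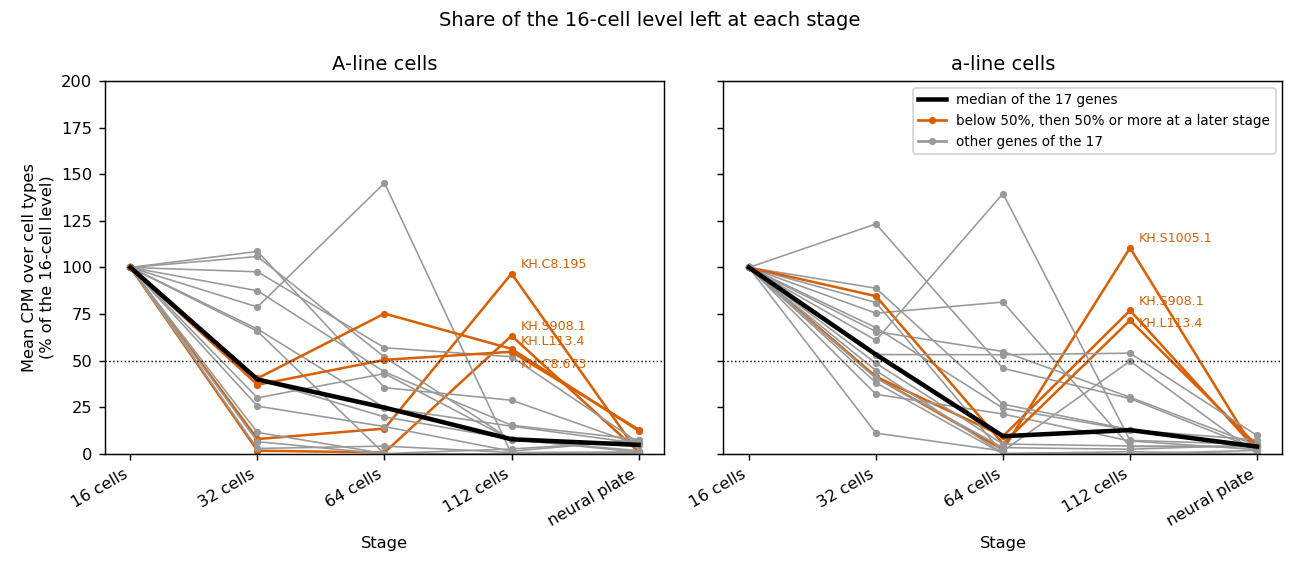
Mean CPM over the cell types of each stage as percent of the 16-cell level, in A-line cells (left) and a-line cells (right). Grey and orange lines are single genes, the thick black line is their median, and orange marks genes that went below 50% and were at 50% or more at a later stage, 4 in the A line and 3 in the a line.

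The label "maternal transcripts cleared by neural plate" names the 2 ends of the series, which the choice itself set, and says little of the course between. Whether the transcripts are maternal was not tested. One set of genes went down stage by stage, and another was present in some embryos of a stage and absent from others. A few were low or absent at 1 or more stages or in 1 lineage, and high again later. The genes are described in these 3 sets, which were formed after their values were seen.

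Among the genes given as going down stage by stage, KH.C7.304 had the highest 16-cell level together with KH.C3.368. The latter went down only after 32 cells. KH.C7.304 had 55.3, 77.8, 41.3, 45.3 and 56.3 CPM in the A5.1 embryos, and a5.3 had 53.9, 39.7, 42.6, 39.8 and 49.9 CPM. At 32 cells it still averaged 98.2% of that level, the second highest share of the set, and A6.2 ranged from 23.5 to 125 CPM with a median of 47.2 CPM. The share was 43.9% at 64 cells, then 9.89% at 112 cells and finally 5.03%. The A-line partner cells gave its clearest step, with 1.88, 9.20, 0, 0 and 3.48 CPM in A8.5, against 18.3, 52.8, 26.8 and 21.2 CPM in A7.3. No A8.5 embryo reached the lowest A7.3 embryo, and the gene fell by 3.34 ± 0.80 on the log2 scale (SE, edgeR's quasi-likelihood test, adjusted p = 0.00555). In A8.7 it had 4.43, 5.96, 7.46, 0.703 and 7.29 CPM, against 46.8, 25.4, 18.6 and 34.0 CPM in A7.4. Those groups did not overlap either, but the change of -2.55 ± 0.77 missed the threshold (adjusted p = 0.0518).

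KH.C3.368 was the gene with the highest share left at 32 cells, 116% of its 16-cell level, followed by 39.8% at 64 cells, 29.2% at 112 cells and, in neural plate cells, 3.71%. At 64 cells it split the A-line embryos. Embryo 2 had 58.9, 61.8 and 23.6 CPM in A7.4, A7.3 and A7.2, while embryo 3 had 0, 0.0636 and 0 CPM in the same cells. None of its steps from 32 to 112 cells passed the test. In A8.5 the gene was not below A7.3, with 27.6, 32.7, 11.4, 13.0 and 26.5 CPM against 61.8, 0.0636, 5.19 and 11.4 CPM. The change in a7.10 relative to a6.5 was -1.35 ± 0.88 on the log2 scale (adjusted p = 0.367).

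KH.C2.794 was even at first, with 45.1, 34.0, 48.6, 32.6 and 45.2 CPM in the A5.1 embryos, while a5.3 had 40.4, 40.1, 31.9, 30.5 and 43.9 CPM. It stood at 67.4%, 24.9%, 13.9% and 6.53% of that level at 32, 64, 112 cells and the neural plate. In a7.10 it ranged from 0.244 to 13.1 CPM with a median of 8.93 CPM, against 25, 24.6, 21.3, 20.8 and 20.8 CPM in a6.5. No a7.10 embryo reached the lowest a6.5 embryo, yet the change of -1.44 ± 0.97 did not pass the test (adjusted p = 0.384). KH.C2.794 was also among the highest of the set at the neural plate, with 6.55, 4.94 and 0 CPM in a9.37+a9.38.

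KH.C12.559, KH.L8.21 and KH.C11.325 are given with these genes, though KH.C11.325 went down stage by stage in the A line alone. KH.L8.21 went down in its stage means, but its embryos were uneven and A8.5 was not below A7.3. It had 0, 25.6, 22.1, 48.8 and 8.82 CPM in A8.5, against 49.2, 11.9, 13.6 and 5.99 CPM in A7.3. KH.C12.559 was at 28.6% of its 16-cell level at 32 cells and at 3.99% at 112 cells. It fell in a8.22, to 1.28, 0, 0 and 0 CPM, against a range of 0.223 to 15.4 CPM and a median of 11.4 CPM in a7.11 (log2 fold change -4.83 ± 1.48, adjusted p = 0.0231). That call was lost without embryo 2, 3 or 4 of a8.22 (adjusted p 0.0695, 0.0688 and 0.0745). KH.L8.21 and KH.C11.325 stayed longest, at 39.6% and 35.1% of their 16-cell levels at 112 cells, and neither passed the test in any step. In the a line KH.C11.325 was level from 32 to 112 cells, with means of 12.5 and 13.7 CPM in a6.5 and a6.6, 13.8 and 12.3 CPM in a7.10 and a7.11, and 12.9 and 13.6 CPM in a8.19 and a8.22. It was at 15.3% in the A line and 54.0% in the a line at 112 cells, with 5.84, 0, 0.113, 0.117 and 6.72 CPM in A8.7, against 6.65, 10.8, 21.9 and 12.4 CPM in a8.19.

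KH.C12.111 was low at 112 cells in both lineages, and in the A line it was below 50% of its 16-cell level already at 32 cells. In the A line it averaged 47.5 CPM in A5.1, 13.9 CPM in A6.2, 19.5 CPM in A7.4 and 5.27 CPM in A8.7. A8.7 had 4.43, 10.2, 0, 11.7 and 0 CPM, against 23.8, 8.04, 22.7 and 23.5 CPM in A7.4. Those groups overlapped, and the step did not pass the test. A6.2 ranged from 4.29 to 31.4 CPM with a median of 7.26 CPM, and A6.1 from 3.56 to 31.3 CPM with a median of 6.76 CPM. In the a line it averaged 39.97 CPM in a5.3, 31.8 CPM in a6.5, 27.2 CPM in a7.10 and 0.567 CPM in a8.19. It fell in a8.19, where embryos had 2.27, 0, 0 and 0 CPM, against 18.4 to 36.4 CPM in a7.10 with a median of 26.8 CPM. The difference was -5.51 ± 1.28 on the log2 scale (adjusted p = 0.00183). It also fell in a8.22, with 1.99, 0.342, 2.33 and 5.69 CPM, against 24.7 to 46.4 CPM in a7.11 (-3.82 ± 1.17, adjusted p = 0.0233). In both pairs the groups were far apart. In A8.5 it had 3.06, 3.73, 0, 2.57 and 0 CPM, against 31.3, 8.15, 32.4 and 12.4 CPM in A7.3 (-3.44 ± 1.10, adjusted p = 0.0444). This last call was lost in 8 of 9 fits that left out 1 embryo, with adjusted p from 0.0415 to 0.0997 over the 9. The a8.22 call was lost without embryo 1, 2 or 3 of a8.22 (adjusted p 0.0637, 0.0754 and 0.0601).

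KH.L113.4 had the smallest adjusted p values of the set, and it was close to absent from 1 lineage at 1 stage. At 16 cells A5.1 had 40.7, 49.6, 36.2, 4.87 and 49.7 CPM and a5.3 had 40.9, 55.2, 48.5, 6.61 and 43.0 CPM, with embryo 5 low in both. At 64 cells a7.10 ranged from 0 to 2.82 CPM with a median of 0.569 CPM, against 46.4, 49.0, 15.5, 15 and 34.0 CPM in a6.5. It averaged 0.949 ± 0.984 CPM in a7.10 (SD, n = 8) and 32.0 ± 16.3 CPM in a6.5 (n = 5), a log2 fold change of -5.09 ± 0.52 (adjusted p = 2.83e-10). At 112 cells a8.19 had 19.9, 24.4, 29.4 and 68.2 CPM, so that every a8.19 embryo was above every a7.10 embryo (5.26 ± 0.54, adjusted p = 1.24e-10). The a-line partner cells followed the same course. In a7.11 the range was 1.45 to 5.22 CPM with a median of 3.26 CPM, against 49.2, 40.4, 23.9, 25.5 and 29.7 CPM in a6.6 (-3.36 ± 0.54, adjusted p = 3.61e-05). In a8.22 it had 19.7, 27.1, 20.4 and 13.7 CPM, higher than in a7.11 by 2.68 ± 0.55 (adjusted p = 0.000537).

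The A line showed no such gap for KH.L113.4. A7.4 had 33.3, 26.4, 23.7 and 30.5 CPM, all above every a7.10 embryo (4.92 ± 0.53, adjusted p = 1.05e-09). A6.2 ranged from 6.37 to 29.0 CPM, and A8.7 had 20.1, 9.15, 11.9, 19.2 and 25.3 CPM. The difference between the lineages was itself tested. The log2 step into 64 cells was 0.69 ± 0.53 in the A line and -5.09 ± 0.52 in the a line. The difference (A line minus a line) was 5.78 ± 0.74 (adjusted p = 4.59e-07). Into 112 cells the A line changed by -0.69 ± 0.56 and the a line by 5.26 ± 0.54. That difference was -5.95 ± 0.78 (adjusted p = 3.71e-07). These calls were kept in every fit that left out 1 embryo. No embryo is stated to be shared between the lineages at these stages. A difference between lineages therefore cannot be told apart from a difference between embryo sets.

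KH.S1005.1 was absent from opposite lineages at successive stages. At 64 cells A7.4 had 4.45, 18.8, 38.5 and 21.8 CPM, A7.3 had 41.6, 31.5, 77.9 and 19.4 CPM, and A7.2 had 75.3, 13.5, 32.8 and 49.6 CPM. It was found in 1 of 8 a7.10 embryos, at 7.73 CPM, and in no a7.11 embryo. At 112 cells it was the A line that had no read, in 5 A8.7 and 5 A8.5 embryos, while a8.19 had 9.31, 90.7, 10.9 and 51.9 CPM and a8.22 had 8.42, 5.87, 5.31 and 10.8 CPM. Groups with no read allow up to 0.0533 CPM in A8.7, and in A8.5 up to 0.0583 CPM (3 reads over the summed group, counting error only). With that limit KH.S1005.1 was at least 763-fold lower in A8.7 than in a8.19 (adjusted p = 0.00325), at least 391-fold lower in A8.7 than in A7.4 (adjusted p = 0.00603) and at least 731-fold lower in A8.5 than in A7.3 (adjusted p = 0.00162). It was higher in a8.19 than in a7.10 by 5.44 ± 1.4 on the log2 scale (adjusted p = 0.00593) and at least 135-fold higher in a8.22 than in a7.11 (adjusted p = 0.00341). The step into 112 cells differed between the lineages (adjusted p = 0.000391). Here too, lineage and embryo set cannot be told apart. The gene was listed with no read in any neural plate sample.

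KH.S908.1 was low at 64 cells in both lineages and high again at 112 cells. In the A line it was low already at 32 cells, with 0 to 2.98 CPM in A6.2 and 0 to 2.38 CPM in A6.1. Embryos 3, 4 and 5 of the a line had at most 0.211 CPM at 32 cells. At 16 cells A5.1 had 30.01, 31.5, 32.3, 90.8 and 29.7 CPM and a5.3 had 34.0, 19.2, 37.5, 91.1 and 31.1 CPM, the high value being embryo 5 in both. A7.4 had 0, 0, 0.383 and 0.201 CPM, and a7.10 ranged from 0.188 to 6.28 CPM with a median of 3.88 CPM. A8.7 had 24.9, 12.3, 50.9, 13.1 and 29.2 CPM, higher than in A7.4 by 7.27 ± 1.75 on the log2 scale (adjusted p = 0.0101). A8.5 had 49.2, 14.7, 24.9, 6.35 and 46.1 CPM, against 0.382, 0.191, 0.641 and 0.0697 CPM in A7.3 (6.46 ± 1.69, adjusted p = 0.012), a call lost without embryo 5 of A7.3 (adjusted p = 0.0514). In the a line a8.19 had 36.9, 29.5, 32.6 and 15.8 CPM, all above every a7.10 embryo, but the change of 2.94 ± 1.10 missed the threshold (adjusted p = 0.0593). Neural plate samples held 0 to 3.57 CPM.

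KH.C8.195, ranked first by the ratio, met the rule through 1 embryo. Embryo 5 of the 16-cell stage had 107 CPM in its A5.1 and 110 CPM in its a5.3 cells, while A5.1 of the other 4 embryos had 0.354 to 4.63 CPM and a5.3 had 1.49 to 6.51 CPM. At 32 cells it stood at 9.62% of its 16-cell level, the lowest share of the set, but at 86.0% without embryo 5, when the lowest share was that of KH.C5.144 (16.8%). At 112 cells it was present in nearly every sample, with 6.36, 11.2, 25.5, 17.4 and 32.0 CPM in A8.7. A8.5 had 11.4, 94.8, 0.782, 7.25 and 14.8 CPM and a8.19 had 11.1, 12.8, 19.5 and 16.2 CPM. No a7.11 embryo had a read, and a8.22 had 11.6, 15.4, 12.4 and 0 CPM, at least 175-fold higher (adjusted p = 0.00452). With embryo 5 aside, the 112-cell values were above the 16-cell values in most embryos, a comparison that was made after the values were seen and was not tested.

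KH.C8.673 was higher at 64 cells than at 112 cells in the a line. It had 0, 0.898, 0 and 9.06 CPM in a8.19, against 12.3 to 101 CPM in a7.10 with a median of 28.4 CPM. It fell by 3.91 ± 1.13 on the log2 scale (adjusted p = 0.0129). In a8.22 it had 0.0510, 5.81, 0 and 0.949 CPM, against 31.6 to 60.0 CPM in a7.11 with a median of 38.6 CPM, and it fell by 4.51 ± 1.19 (adjusted p = 0.00817). Neither pair overlapped. A8.7 had 34.1, 14.4, 45.5, 0 and 21.9 CPM, against 12.9, 19.8, 1.66 and 7.69 CPM in A7.4, and did not pass the test (1.19 ± 1.03, adjusted p = 0.621). The step into 112 cells differed between the lineages by 5.11 ± 1.51 (A line minus a line, adjusted p = 0.044), but that call was lost in 13 of 21 fits that left out 1 embryo, with adjusted p up to 0.093.

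**Figure D3:**
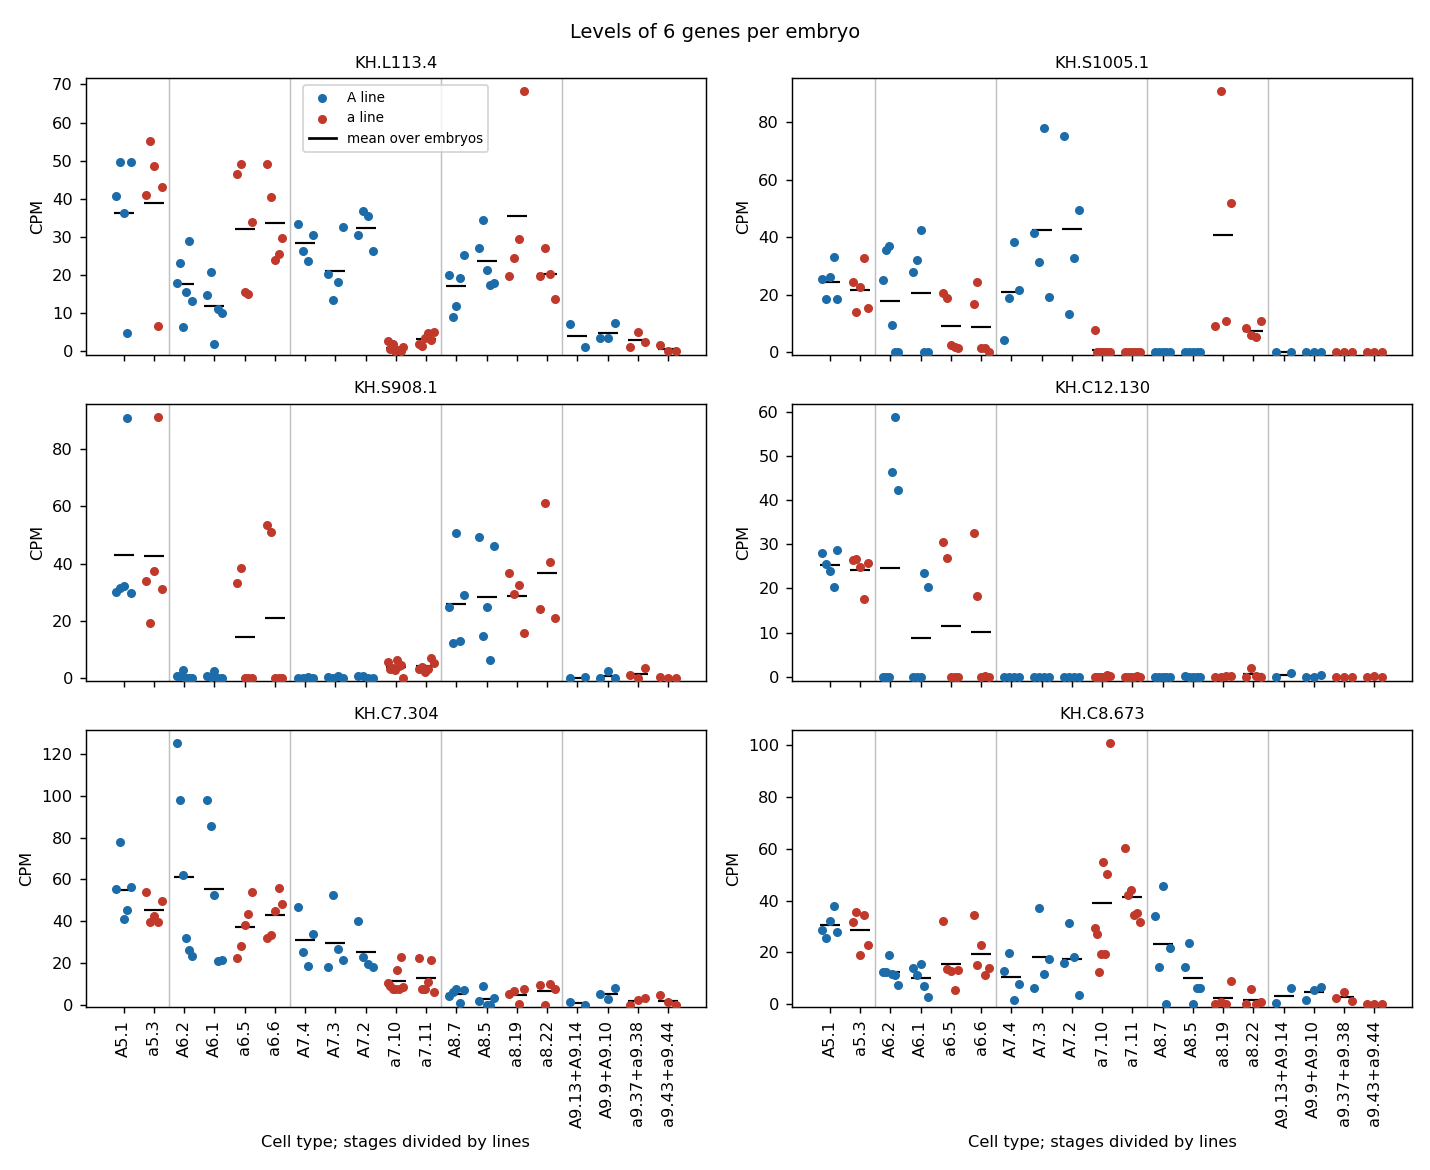
CPM of 6 genes in every embryo (points; A line blue, a line red) by cell type, with the mean over embryos as a black bar and stages divided by vertical lines. Among the 64-cell types KH.L113.4 is near 0 in a7.10 and a7.11 and at 13.4 CPM or more in the A-line types, KH.S1005.1 is at 0 in A8.7 and A8.5, and KH.C12.130 is at 18.4 CPM or more, or at or near 0, in the embryos of the 32-cell stage.

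The last set was present in some embryos of a stage and absent from the others, in every cell type of the embryo. A gene was counted as split when it had at least 10 CPM in all cell types of 1 embryo of a lineage and stage and at most 1 CPM in all cell types of another. At 32, 64 and 112 cells 7 of the 17 genes were split in at least 1 of 6 such sets, against 1.27% of the 6857 genes and 3.94% of all genes. The genes were not chosen on these samples, but a variable level can itself help a gene to meet the rule, so the share is a description. In A-line cells at 32 cells the split genes were KH.S1005.1, KH.C12.130, KH.C7.700 and KH.C9.157. In a-line cells at 32 cells they were KH.S908.1, KH.S1537.1, KH.C12.130 and KH.C9.157, and KH.C3.368 was split in A-line cells at 64 cells.

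KH.C12.130 was the sharpest case. At 16 cells it was even, with 28.0, 25.6, 23.9, 20.4 and 28.8 CPM in the A5.1 embryos, and 26.4, 26.7, 24.9, 17.6 and 25.8 CPM for a5.3. At 32 cells embryos 1, 2 and 3 of the A line had no read in A6.2 or A6.1, while A6.2 had 46.4, 58.8 and 42.4 CPM in embryos 4, 5 and 6 and A6.1 had 23.4 and 20.3 CPM in embryos 4 and 6. Among a-line embryos, embryos 1 and 2 had 30.6 and 27.0 CPM in a6.5 and 32.5 and 18.4 CPM in a6.6, while embryos 3, 4 and 5 had at most 0.211 CPM. At 64 cells it was gone from nearly all samples: A7.4, A7.3 and A7.2 had no read, and a7.10 had 3 reads in all. KH.C12.130 was at least 404-fold lower in A7.4 than in A6.2 (adjusted p = 0.0432). In a7.10 it was lower than in a6.5 by a ratio of 245 (counting interval 83.8 to 1187, adjusted p = 0.015). The a7.10 call was lost in DESeq2 (adjusted p = 0.117). The A7.4 call was lost in 7 of 10 fits without 1 embryo, with adjusted p from 0.0363 to 0.119.

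The same a-line embryos divided several genes at 32 cells. KH.S1537.1 had 31.7 and 24.1 CPM in a6.5 of embryos 1 and 2 and no read in embryos 3, 4 and 5. KH.S908.1 had 33.2 and 38.4 CPM in a6.5 of embryos 1 and 2 and 0.122, 0 and 0 CPM in embryos 3, 4 and 5. KH.C5.144 had 26.6 and 33.2 CPM in embryos 1 and 2 and 0.856, 1.53 and 0.628 CPM in the others. KH.C9.157 had 47.3 and 35.1 CPM against 3.06, 0 and 0 CPM, and KH.S1005.1 had 20.7 and 19.0 CPM against 2.44, 1.86 and 1.38 CPM. Embryos 1 and 2 were thus high for KH.C12.130 and each of these 5 genes. KH.C3.368 ran the other way, with 13.5 and 36.2 CPM in embryos 1 and 2 against 82.4, 80.7 and 80.1 CPM, and so did KH.C7.304, with 22.3 and 28.1 CPM against 38.4, 43.6 and 54.2 CPM. The labels give nothing that sets these embryos apart, and how far this moves with parentage, staging or handling was not tested.

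In A-line cells at 32 cells the embryos divided in another way. KH.S1005.1 had 25.3, 35.5 and 37.1 CPM in A6.2 of embryos 1, 2 and 3 and 9.41, 0 and 0 CPM in embryos 4, 5 and 6. KH.C7.700 had 19.3, 7.03 and 17.4 CPM in the first 3 of these and 1.43, 0 and 0 CPM in the others. KH.C12.130 and KH.C9.157 were instead high in embryos 4, 5 and 6, KH.C9.157 with 11.6, 11.6 and 6.59 CPM against 0.273, 1.15 and 0.346 CPM. KH.S1537.1 was found in embryo 3 alone, where A6.2 had 11.8 CPM and A6.1 had 8.26 CPM. By the labels, embryos 1, 2 and 3 were sampled on the left and the right side for each cell type. Embryos 4, 5 and 6 were sampled on a single side, and they stand apart from the others in the sample list. The division of the embryos cannot be told apart from this difference, and what it rests on was not tested.

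KH.S1537.1 was not seen again after 32 cells. No read was counted in any sample at 64 cells, 112 cells or the neural plate, which in a7.10 allows up to 0.0470 CPM. Against the a6.5 mean of 11.1 CPM it was at least 237-fold lower in a7.10, by counting error only (adjusted p = 0.0278). The a6.5 mean came from embryos 1 and 2, since embryos 3, 4 and 5 had no read. The call in a7.10 was lost without embryo 1 of a6.5 (adjusted p = 0.0523). The gene was already absent from embryo 5 at 16 cells, in both cell types, while the other embryos had 23.3 to 50.8 CPM in A5.1. KH.C7.700 was rarely found in the a line at 64 cells. It was found in 1 of 8 a7.10 embryos, at 0.720 CPM, against 19.4, 31.1, 24.1, 15.8 and 20.8 CPM in a6.5 (-7.88 ± 2.03, adjusted p = 0.00781). It had no read in a7.11, at least 290-fold lower than in a6.6, where embryos had 15.1, 19.4, 19.0, 12.0 and 16.1 CPM (adjusted p = 0.0125). In the A line it persisted in embryo 2 of the 64-cell stage, with 24.8, 6.1 and 19.0 CPM in A7.4, A7.3 and A7.2, and the other 3 embryos had at most 1.35 CPM.

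Embryo 5 of the 16-cell stage stood apart for many of these genes. In this embryo KH.C5.144 had 2.63 CPM in the A5.1 and 1.59 CPM in the a5.3 cells, against 36.1 to 47.7 CPM in A5.1 of the others. KH.C9.157 had 1.92 and 3.49 CPM in A5.1 and a5.3 of embryo 5 and 37.5 to 60.8 CPM in the other samples of both types. In the same embryo KH.C8.195 and KH.S908.1 were highest. Both cell types of this embryo were thus alike for these genes and apart from the other embryos.

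The agreement held in general between cells of 1 embryo at the early stages. The median absolute log2 difference of the 17 genes (1 CPM added) between A5.1 and a5.3 was 0.28 within an embryo and 0.72 between embryos, and 15 of 17 genes were closer within an embryo. It was 0.41 within and 1.13 between embryos for A6.2 and A6.1 (14 of 17 genes), and 0.41 and 0.99 for a6.5 and a6.6 (15 of 17 genes). Over the 6857 genes the corresponding medians were 0.24 and 0.31 at 16 cells, 0.31 and 0.45 in the A line at 32 cells, and 0.26 and 0.35 in the a line. By 64 and 112 cells the 17 genes differed nearly as much within an embryo as between embryos in the a line, with 0.80 and 0.82 for a7.10 and a7.11 and 1.07 and 1.2 for a8.19 and a8.22. In the A line the values were 0.66 and 1.10 for A7.4 and A7.3, and 0.84 and 1.11 for A8.7 and A8.5. Over the 6857 genes the medians were 0.42 and 0.44 for a7.10 and a7.11, and 0.45 and 0.46 for a8.19 and a8.22. They were 0.38 and 0.45 for A7.4 and A7.3, and 0.52 and 0.56 for A8.7 and A8.5. The values within and between embryos thus lay close together over the 6857 genes as well. These differences are descriptions, and low genes contribute more to them.

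**Figure D4:**
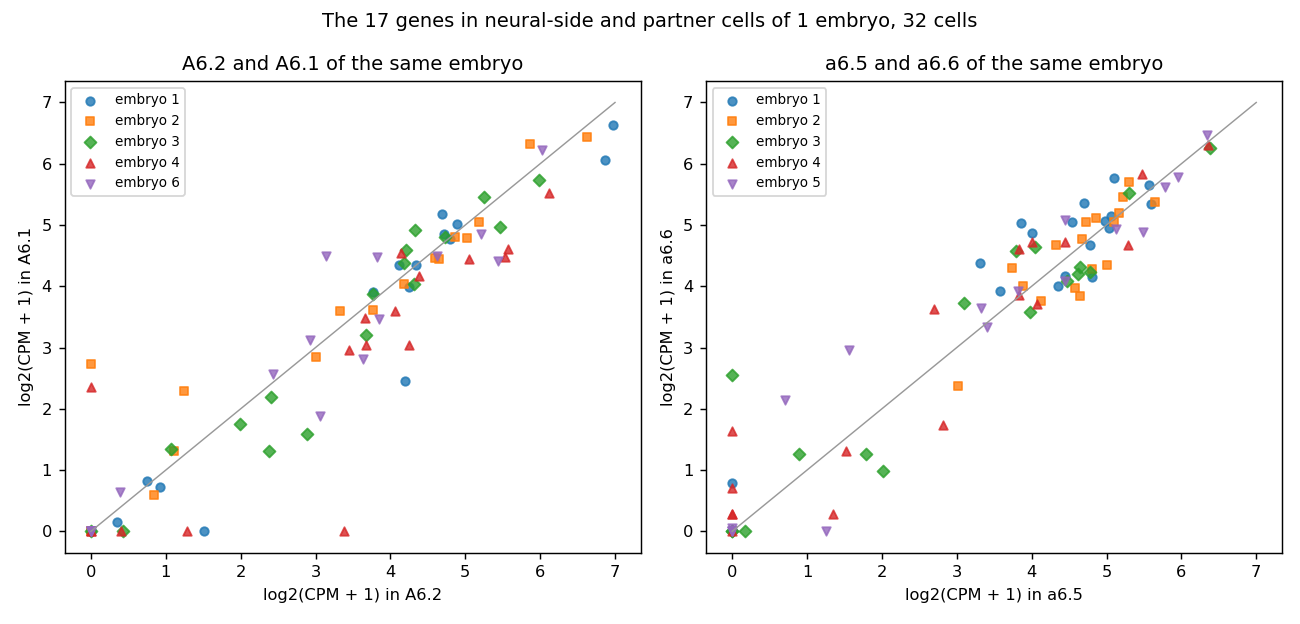
Log2(CPM + 1) of the 17 genes in the neural-side cell (x) and its partner (y) of the same embryo at 32 cells, A6.2 and A6.1 on the left and a6.5 and a6.6 on the right, with 1 symbol per embryo and the line of equality in grey. Most points lie near the line, and the genes near 0 in 1 cell of an embryo are mostly near 0 in the other.

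Across the stages that the choice did not use, counts of called genes were small. All 17 genes were tested, in 9 steps between successive cell types. In a7.10 relative to a6.5, 4 of 17 genes fell and 0 rose, while 6.89% of the 12871 genes tested fell and 3.46% rose. In a7.11 relative to a6.6, 5 fell and 0 rose (3.20% and 1.90% of all genes). In A7.4 relative to A6.2, 1 fell and 0 rose (1.55% and 2.28%), as in A7.3 relative to A6.2 (1.47% and 1.99%) and in A7.2 relative to A6.1 (3.61% and 4.21%). In those last 3 steps the gene was KH.C12.130, and the call was lost in 7 of 10 fits without 1 embryo for A7.4, in 9 of 10 for A7.3 (adjusted p 0.0429 to 0.134) and in 7 of 9 for A7.2 (0.0357 to 0.112). The A7.3 call was also lost with no filter on low counts (adjusted p = 0.055). The KH.C12.130 call in a7.11 was lost in 9 of 11 fits without 1 embryo (adjusted p 0.0435 to 0.0907), with no filter (0.0512) and in DESeq2 (0.153). The median log2 change over the 17 genes was -1.73 in a7.10, -2.35 in a7.11, -0.99 in A7.4, -0.86 in A7.3 and -1.10 in A7.2, while the medians over all genes lay between -0.02 and 0.03.

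From 64 to 112 cells the called genes went both ways. In a8.19 relative to a7.10, 2 fell and 2 rose (6.35% and 8.63% of all genes), and in a8.22 relative to a7.11, 3 fell and 3 rose (5.13% and 6.95%). In A8.7 relative to A7.4, 1 fell and 1 rose (2.14% and 1.09%), and in A8.5 relative to A7.3, 3 fell and 1 rose (4.16% and 2.28%). The median log2 change was -0.32 in a8.19, -0.33 in a8.22, -1.51 in A8.7 and 0 in A8.5. KH.L113.4 and KH.S1005.1 rose in both a-line cell types, and KH.S908.1 rose in both A-line cell types. Most 64-cell groups serve in 2 successive steps and A6.2 in 2 steps into 64 cells, so these comparisons share samples.

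Few of the genes differed between the lineages in neural-side cells. Between A6.2 and a6.5 only KH.S908.1 passed, lower in A6.2 (log2 fold change -4.10 ± 1.25, adjusted p = 0.0398), where 4.87% of all genes were called. That call was lost in 7 of 11 fits without 1 embryo. Between A7.4 and a7.10, 4 genes passed (9.58% of all genes). KH.L113.4 was the one whose embryos did not overlap, and KH.S1005.1 and KH.C7.700 were higher and KH.S908.1 lower in A7.4. The KH.S1005.1 call was lost without embryo 4 or 5 of A7.4 (adjusted p 0.0793 and 0.0545). The KH.C7.700 difference was -0.081 without embryo 2 of A7.4 (adjusted p = 1), and its call was lost in 7 further fits without 1 a7.10 embryo (adjusted p 0.0607 to 0.064) and in DESeq2 (adjusted p = 0.096). The KH.S908.1 call was lost in 11 of 12 fits without 1 embryo. Between A8.7 and a8.19 KH.S1005.1 alone passed (1.96% of all genes). The step differed between the lineages for 1 gene into 64 cells and for 3 into 112 cells, against 6.85% and 3.14% of all genes. With no embryo stated to be shared between the lineages, these differences cannot be told apart from differences between embryo sets. With the left-out A6.1 library put back, 13 of all 38 calls on single genes were lost, from 9 genes, among them those of KH.S1005.1, KH.C7.700 and KH.S908.1 between A7.4 and a7.10.

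Neural-side cells were also set against partner cells of their lineage. In 7 such comparisons 0 of 17 genes passed in edgeR's quasi-likelihood test, against 1.41% of all genes called in at least 1 of them. At an unadjusted p below 0.05 the comparisons held 0 to 3 of the 17 genes. With the embryo as a block, KH.L113.4 was lower in a7.10 than in a7.11 (log2 fold change -2.7, adjusted p = 0.00974). DESeq2 called 6 genes in these comparisons. For KH.C7.700, KH.S1005.1, KH.C12.130 and KH.C9.157 all reads behind each such call came from 1 embryo of 1 cell type. KH.C7.700 had 5 reads and KH.S1005.1 had 63 reads in a7.10, and KH.C12.130 had 1 read in A8.5. KH.C9.157 had 6 reads in A7.4 and 126 reads in a8.19.

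At the neural plate, where all 17 genes had to be low, they were not uniformly absent. KH.S1005.1 and KH.S1537.1 had no read in any of the 11 embryo samples. KH.C8.673 had 0.340 and 6.25 CPM in the A9.13+A9.14 samples, 1.81, 5.55 and 6.62 CPM in A9.9+A9.10, 2.59, 4.94 and 1.13 CPM in a9.37+a9.38, and 0.0481, 0 and 0 CPM in a9.43+a9.44. For KH.L113.4 A9.13+A9.14 had 7.14 and 1.16 CPM and A9.9+A9.10 had 3.55, 3.51 and 7.52 CPM, while a9.37+a9.38 had 1.11, 5.13 and 2.44 CPM, and a9.43+a9.44 had 1.59, 0 and 0.160 CPM. With 2 or 3 embryos in each group these values are given without a comparison.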

How the data were processed

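Raw whole-number read counts, as deposited, covered 15287 KH gene models in 133 libraries. Per the labels' protocols, single cells were amplified with the SMARTer Ultra Low Input kit, made into Nextera XT libraries and read single-end. Per the submitters' processing notes, alignment used STAR 2.7.10a. Build, annotation and read counter are not stated in the labels or headers used here. Without molecular identifiers or stated strand, counts are amplified reads, so limits cover counting error only, and near-identical, overlapping or antisense genes are uncertain.

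The members and gene lists were chosen with earlier results of these data known, and all 17 members are printed. The genes given in detail follow a rule on rank, level, shares left and calls, and genes named outside it were chosen after their values were seen. Counts of 1 cell type and embryo were summed, and levels are CPM on plain totals. Over 65 embryo samples of 13 cell types at 32, 64 and 112 cells, 12871 genes were tested with edgeR 4.0.16 in R 4.3.3 (quasi-likelihood test, TMM, edgeR's filter on low counts, adjusted p below 0.05 by Benjamini-Hochberg). Parents and batches are not labelled, so p-values measure the spread between these embryos only. In simulated counts of 12573 genes for A7.4 and A6.2, 45% of log2 changes of 2 and 20% of log2 changes of 1 were recovered.

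Alternatives were other scalings, no filter, DESeq2 1.42.0, the left-out library put back, embryo blocks and leaving out embryos. The labels pair neural-side and partner cells by embryo. Their deviations from group means correlated within an embryo with a mean r of 0.427, 0.211 and 0.0946 in the A line and 0.272, 0.0524 and 0.0428 in the a line at 32, 64 and 112 cells.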

Additional observations from a re-analysis of the deposited data

Results flagged for a closer look

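A sample was flagged where its gap to the nearest other embryo was too large for the range of its group. This held for 26 of 201 groups of 4 to 10 embryos (12.9%). A chance rate of about 1 in 20 applies only to normally distributed values. Several flagged groups held samples with no read, so the share is a description and cannot be set against that rate. The 16-cell values were also used in the choice of genes. Of the 26 flags, 7 were embryo 5 of the 16-cell stage, through which KH.C8.195 met the rule. In that embryo KH.C8.195 had 107 CPM in its A5.1 and 110 CPM in its a5.3 cells, and KH.S908.1 had 90.8 and 91.1 CPM. KH.C5.144 was low in its A5.1 cells, at 2.63 CPM, and KH.C12.130 and KH.C9.157 were low in its a5.3 cells, at 17.6 and 3.49 CPM. KH.C11.325 was low in a5.3 of embryo 3, at 15.5 CPM.

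At 32 cells the high samples were KH.C8.195 in a6.5 of embryo 2 (7.13 CPM), KH.S1537.1 in A6.2 and A6.1 of embryo 3 (11.8 and 8.26 CPM) and KH.C11.325 in a6.6 of embryo 1 (19.8 CPM). At 64 cells embryo 2 of the A line stood out in 5 groups. It had 24.8, 6.1 and 19.0 CPM of KH.C7.700 in A7.4, A7.3 and A7.2, 6.14 CPM of KH.C8.195 in A7.4 and 7.25 CPM of KH.C5.144 in A7.3. KH.C12.111 was low in A7.4 of embryo 3, at 8.04 CPM. In a7.10 KH.C8.195 had 6.11 CPM in embryo 6 and KH.S1005.1 had 7.73 CPM in embryo 1, with no read in the other 7 embryos. At 112 cells KH.C8.195 had 94.8 CPM in A8.5 of embryo 3, KH.C7.700 had 6.32 CPM in A8.7 of embryo 6, and KH.C9.157 had 9.85 CPM in A8.5 of embryo 5 and 11.3 CPM in a8.19 of embryo 4. KH.C8.673 had 9.06 CPM in a8.19 of embryo 4 and 5.81 CPM in a8.22 of embryo 2.

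The step between stages differed between the lineages in 4 cases, given as A line minus a line on the log2 scale. They were KH.L113.4 into 64 cells (5.78) and into 112 cells (-5.95), KH.C8.673 into 112 cells (5.11) and KH.S1005.1 into 112 cells (-16.34). The last value involves A8.7, which had no read, so its size depends on the fit and is no bound.

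The A6.1 library that was left out held 43.4 CPM of KH.C8.195 and 0.446 CPM of KH.C3.368, both above the 0.268 CPM that a count of 0 allows there. The A6.1 embryos in use averaged 2.25 CPM of KH.C8.195 and 55.4 CPM of KH.C3.368. What these flags rest on was not tested.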

How the results depend on the processing

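Of 680 refits of the 38 calls on single genes, 571 kept direction and call, 108 lost the call and 1 changed sign: KH.C7.700 in A7.4 relative to a7.10, -0.081 without embryo 2 of A7.4 (up to 9.16 without other embryos). In every refit 22 of the 38 calls held. Counts of genes called that moved by over 1.5 times are grouped by setting. With the left-out library put back, the genes lower were 0 in A7.4 and 0 in A7.3 (each 1 as reported), 2 in A7.2 (1), 3 in a7.11 (5) and 1 in a8.22 (3), and those called were 0 between A6.2 and a6.5 (1), 1 between A7.4 and a7.10 (4) and 1 in partner comparisons (0). DESeq2 gave 4 lower in A8.7 (1), 3 in A7.3 (1) and 2 in A7.2 (1), 2 called between A6.2 and a6.5 (1), 6 between A8.7 and a8.19 (1), 2 steps into 64 cells that differed (1) and 6 in partner comparisons (0). Plain totals gave 2 lower in A8.7, and no filter gave 0 lower in A7.3. The embryo as a replicate block gave 1 gene in partner comparisons and 216 of all genes, against 0 and 181. It was fitted for the partner comparisons only, since A-line against a-line cells and the steps share no stated embryo.

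Leaving out 1 embryo at a time gave 0 to 1 genes lower in A7.4, A7.3 and A7.2, 1 to 2 in A8.7, 2 to 3 in A8.5, 3 to 5 in a7.10, 4 to 5 in a7.11, 2 to 2 in a8.19 and 1 to 3 in a8.22. Called were 0 to 1 between A6.2 and a6.5, 2 to 3 between A7.4 and a7.10 (4 with all embryos), 1 to 2 between A8.7 and a8.19, and 0 to 1 in partner comparisons, and 1 to 2 and 2 to 3 steps differed into 64 and 112 cells. The cause was not tested. Leaving out 1 embryo of the 16-cell stage, 5 to 8, 6 to 8 and 1 to 2 genes came first below 50% at 32, 64 and 112 cells. The rule found 46 genes at 10 CPM and 4 at 40 CPM for the 16-cell limit, and 8 at 2 CPM and 65 at 10 CPM for the neural plate limit. Leaving out 1 embryo it found 16 to 20. Below 75% in place of 50%, 14, 3 and 0 genes came first at 32, 64 and 112 cells, below 25% 4 did at 32 cells, and with TMM-scaled CPM 1 did at 112 cells. A dispersion estimate and the 16-cell embryos left out of both types, for the choice and the shares left, were added after the data were seen. Each group compared held 4 to 8 embryos.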
